A study of Homo sapiens with 2 samples.

Results

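The genes described here are the numbered ZNF genes, the largest named family of zinc finger protein genes, measured in AsPC-1 cells, an established human pancreatic adenocarcinoma line. They were chosen by symbol (ZNF followed by digits alone in the platform annotation) and by level (a mean of at least 5.0 on the log2 scale over both arrays), with the brightest probe set standing for each gene. This gave 143 genes, out of 436 ZNF genes with a named probe set and out of 6862 named genes of any kind at the same level floor. Because the floor and the differences come from the same 2 arrays, the values below are a description and carry no test. The members and lists were also picked with earlier results of these data known.

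AsPC-1 cells grew in 3 dimensions beneath an overlay of collagen gel. One culture was left uncompressed and the other was held under a compressive stress of 2.9 mmHg, each for 24 h, with no other treatment given in the labels. Total RNA of each culture went onto 1 GeneChip Human Gene 2.0 ST array, so there is 1 array per condition and no spread between cultures can be estimated. Levels are log2 RMA signals, and where 2 levels of a gene are given, the uncompressed one comes first. A difference is the compressed minus the uncompressed level, and the size used for counting is 1.5-fold (0.58 on the log2 scale). No depth or detection call was used here, so a fold is given only where both arrays read 5.0 or more. Of the 8 ductal epithelial markers listed, 5 had a named probe set, and KRT18, KRT19, EPCAM and KRT8 read between 6.13 and 11.71 on both arrays, while KRT7 read 3.36 and 3.78. The acinar, endocrine and endothelial markers with a named probe set (6 of the 11 listed) lay below 5.0, whereas LUM, a fibroblast proteoglycan gene, read 9.75 uncompressed and 9.39 compressed, and CD68, a macrophage and lysosome gene, 8.45 and 9.26. These were the only 1 of 5 fibroblast and 1 of 4 immune markers with a named probe set, and their part in the ZNF values was not tested.

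Most ZNF genes encode proteins with rows of C2H2 fingers, short folds in which a pair of cysteines and a pair of histidines hold a zinc ion and which read DNA base by base. A large share of them also carry a KRAB box, which recruits the co-repressor TRIM28 and, through it, the histone methyltransferase SETDB1 and HP1 proteins to silence chromatin, above all at transposable elements. Many ZNF genes lie in clusters of related copies, so probes for such a gene may also capture RNA of another. The division of signal among close paralogs is uncertain. The study's title links free zinc to the response to compression, but zinc in a finger is a structural part of the protein, and these arrays measured RNA alone.

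As a group the ZNF genes stayed close to their uncompressed levels. The median difference over the 143 genes was 0.06, with an interquartile range from -0.14 to 0.22, and the median over all 6862 named genes at the floor was 0.01, with an interquartile range from -0.15 to 0.19. Repeating the quantile normalization over the named probe sets took the ZNF median to -0.00178 and that of all named genes to -0.03, so the median has no settled sign. In the compressed culture 77 ZNF genes read higher, 62 lower (43.4%, against 46.4% of all named genes at the floor) and 4 the same. Only 4 were at least 1.5-fold higher, which is 2.80% of them against 3.95% of all named genes, and 3 were at least 1.5-fold lower, 2.10% against 1.06%. Nothing is read from these shares, because the floor was applied to the same arrays. None reached 2-fold in either direction, a size that 64 of all named genes (0.933%) passed upward and 5 (0.0729%) downward. In all, 91 of the 143 (63.6%) differed by less than 0.25, against 68.2% of all named genes. At a smaller size, 0.32 on the log2 scale, 19 ZNF genes were higher, where 13.5% of all named genes were, and 10 (6.99%) were lower, where 7.81% were. Over protein-coding genes alone, which all 143 members are, the backgrounds at 1.5-fold were 3.59% higher and 0.971% lower.

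**Figure D1:**
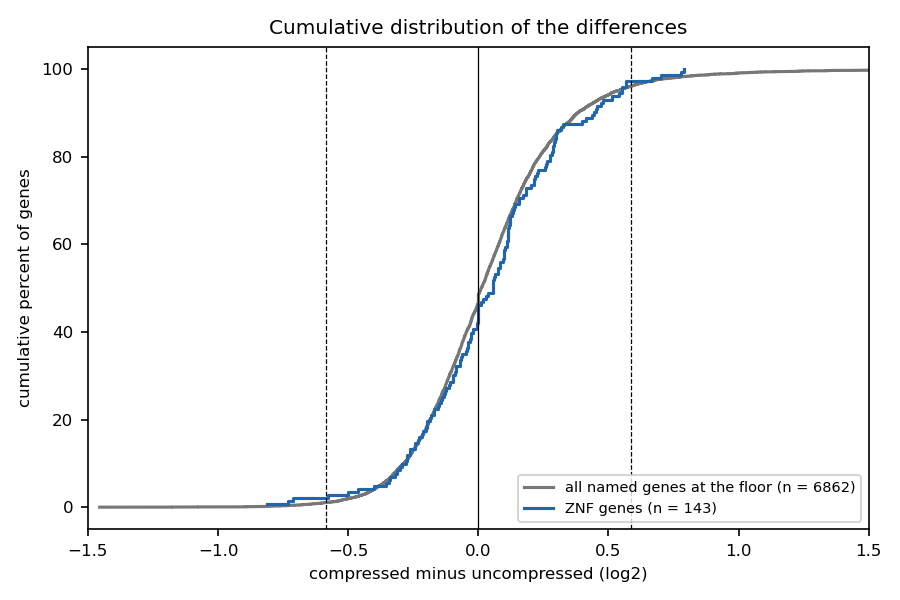
Cumulative percent of genes (vertical axis) against the log2 difference compressed minus uncompressed (horizontal axis), for the 143 ZNF genes in blue and all 6862 named genes at the level floor in grey; dashed lines mark 1.5-fold. The curves nearly coincide, with medians of 0.06 and 0.01, and the ZNF curve ends at 0.79, while other genes reach 3.01, beyond the plotted axis.

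The members were dim among the genes that reach the level floor. Their mean levels ran from 5.00 to 8.53 with a median of 5.62, below the 6.45 of protein-coding genes at the floor, and 48 of them (33.6%) had a mean of at least 6.0, against 62.6% of all at the floor. With no floor, the median level was 4.41 over the 436 ZNF genes and 4.79 over all 14884 named genes. Only 7 had a mean of 7 or more. The highest was ZNF207, which encodes a protein that binds the checkpoint protein BUB3 at kinetochores, at 8.56 uncompressed and 8.51 compressed. ZNF146, whose product is little more than a row of fingers, followed at 7.72 on both arrays. ZNF511 read 7.49 and 7.79, ZNF121 7.44 and 7.75, and ZNF800 7.19 and 7.35, all higher in the compressed culture by 0.30 or less. ZNF703, a transcriptional co-repressor amplified in luminal breast cancers, read 7.31 and 7.21. ZNF326 read 7.29 and 6.99, and ZNF106, which encodes an RNA-binding protein, 6.89 and 7.08. None of these 8 brightest members passed 1.5-fold, a size that 3.95% of all named genes at the floor passed upward and 1.06% downward. With so few genes nothing is read from this count.

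The differences were also read by level. Among the 53 members with a mean from 5.0 to 5.5 the median difference was -0.04 and 30 (56.6%) were below 0, against a median of 0.00 and 49.6% below 0 over 1353 named genes in that range. Among the 42 from 5.5 to 6 the median was 0.11 with 12 (28.6%) below 0, against 0.03 and 42.8% over 1214 genes. Among the 41 from 6 to 7 it was 0.08 with 16 (39.0%) below 0, against 0.04 and 41.9% over 2013 genes. Among the 7 at 7 or above it was -0.0014 with 4 below 0, against -0.0032 and 50.4% over 2282 genes. For members and for all named genes alike, the share below 0 was smaller in the middle ranges than in the dimmest and the brightest. Of the 7 members past 1.5-fold, 5 lay in the dimmest of these ranges, and the exceptions were ZNF841 and ZNF655. On 119 members both arrays read 5.0 or more, and their median difference was 0.06. Only ZNF841 and ZNF655 among them passed 1.5-fold, both upward. Of all named genes at the floor on the mean, 3.95% passed it upward and 1.06% downward. The share with both arrays at 5.0 or above is not given, so nothing is read from this count.

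**Figure D2:**
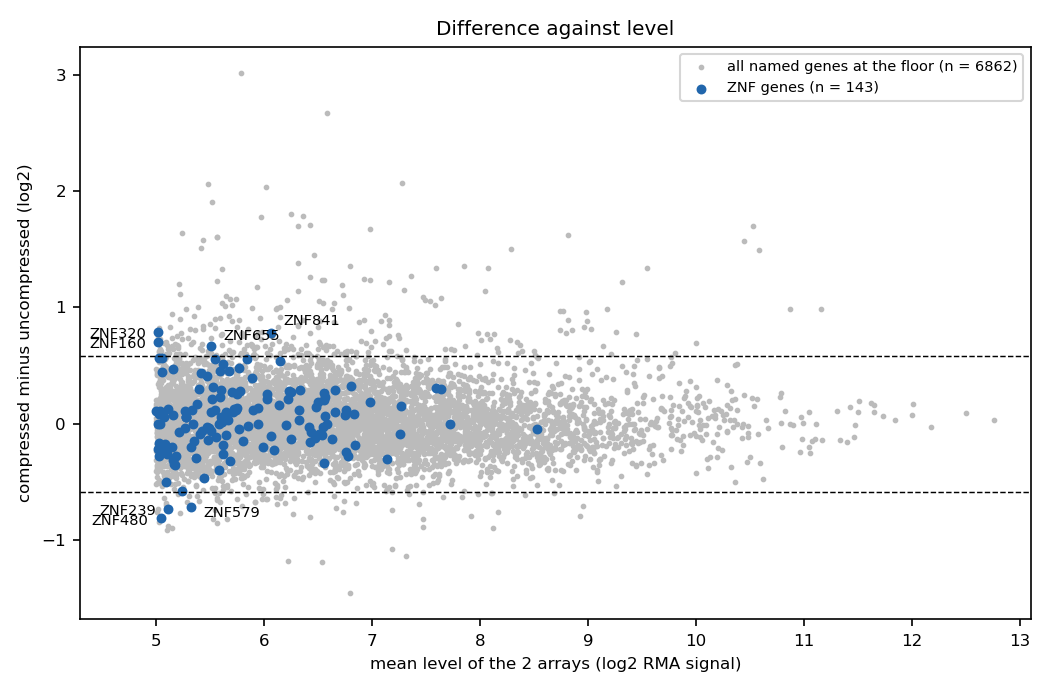
Log2 difference compressed minus uncompressed (vertical axis) against the mean log2 level of both arrays (horizontal axis) for 6862 named genes at the floor (grey) and 143 ZNF genes (blue); dashed lines mark 1.5-fold and the 7 ZNF genes beyond them are named. Of these 7, only ZNF841 and ZNF655 have a mean above 5.5.

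The members with the largest positive differences were ZNF320, ZNF841, ZNF160 and ZNF655. ZNF841 read 5.68 and 6.45, a difference of 0.78 (1.71-fold higher). ZNF655, whose product was described as a partner of the signalling protein VAV1, read 5.17 and 5.84 (0.67, 1.59-fold higher). These were the 2 members past 1.5-fold that read at least 5.0 on both arrays. ZNF320 read 4.62 and 5.41 (0.79) and ZNF160 4.67 and 5.37 (0.70), so both crossed the floor and no fold is given. ZNF609, the host gene of a well-studied circular RNA, read 4.74 and 5.31 (0.57), and ZNF251 4.77 and 5.34 (0.57). The other members among the 15 highest were ZNF227, ZNF438, ZNF562, ZNF394, ZNF584, ZNF341, ZNF410, ZNF138 and ZNF548, with differences from 0.55 down to 0.44. ZNF227 read 5.27 and 5.82 (1.47-fold higher) and ZNF438 5.57 and 6.12 (1.47-fold higher). ZNF562 was the brightest of these, at 5.87 and 6.41 (1.46-fold higher). ZNF394 read 5.37 and 5.88, ZNF584 was higher by 0.48, and ZNF138 5.45 and 5.90. All 6 read at least 5.0 on both arrays, whereas ZNF548 (4.83 and 5.27) and ZNF341 did not. ZNF341, a transcriptional activator of the STAT3 gene, read 4.92 and 5.39. Members under 5.0 on the uncompressed array passed the floor only through the compressed one, so nothing is read from their place.

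The largest negative differences belonged to members whose compressed level lay under the floor. Such genes passed the floor on the mean only through their uncompressed level, so nothing is read from their place at this end. ZNF480 read 5.45 and 4.64 (-0.81). ZNF239, whose product binds both DNA and RNA, read 5.48 and 4.75 (-0.73). ZNF579 read 5.68 and 4.96 (-0.71). None of these 3 is given a fold, because whether their compressed signal was above background is unknown. ZNF467 read 5.53 and 4.95 (-0.58), just short of 1.5-fold, and ZNF3 5.34 and 4.84 (-0.50). The remaining members of the 15 lowest were ZNF324, ZNF576, ZNF668, ZNF689, ZNF451, ZNF696, ZNF597, ZNF326, ZNF485 and ZNF776, with differences from -0.46 to -0.28. The largest negative difference with both arrays at the floor was that of ZNF324, which read 5.67 and 5.21 (1.38-fold lower). ZNF576 read 5.79 and 5.38 (1.32-fold lower), ZNF696 5.85 and 5.53, and ZNF485 5.51 and 5.22. ZNF776 read 5.17 and 4.89, and so crossed the floor as well. ZNF451 and ZNF326 were the only ones of the 15 with a mean above 6.

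**Figure D3:**
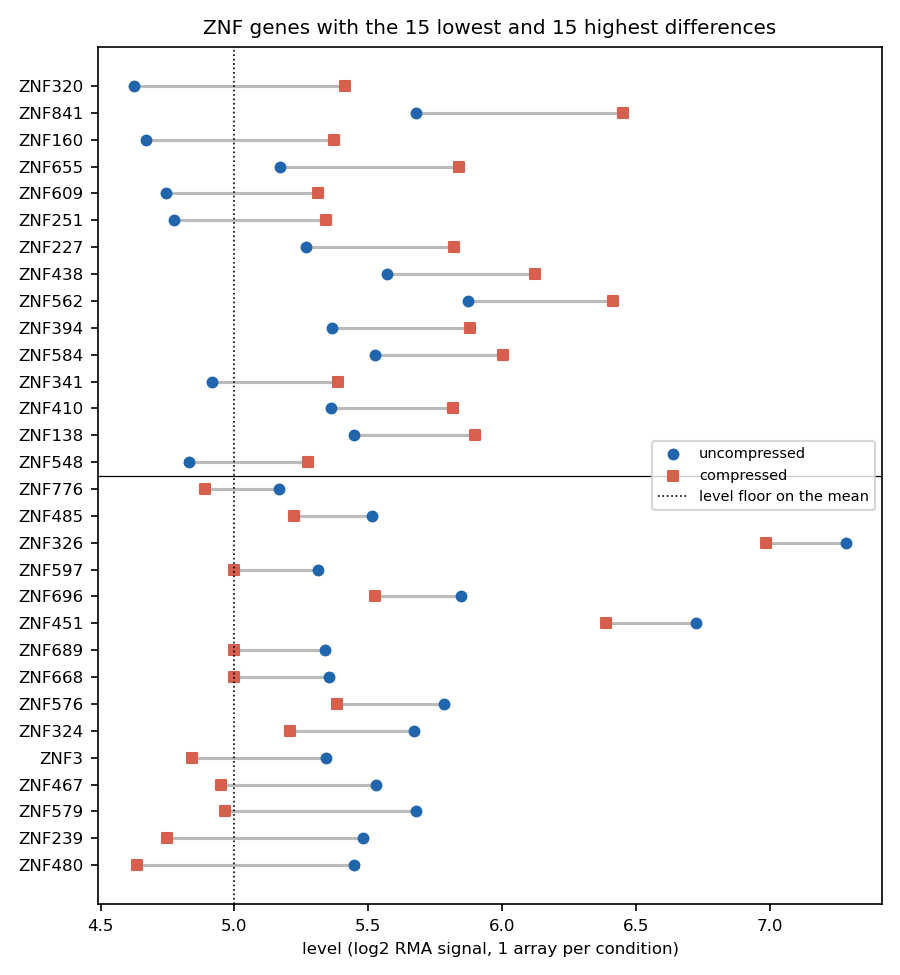
Levels (log2 RMA signal, horizontal axis) of the 15 ZNF genes with the lowest and the 15 with the highest difference, uncompressed as blue circles and compressed as red squares, 1 array each; the dotted line is the level floor of 5.0. ZNF480, ZNF239 and ZNF579 cross the floor downward, ZNF320 and ZNF160 upward, and ZNF841 stays above it at 5.68 and 6.45.

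The level floor is a fixed cut in a continuous range. The members just inside it were ZNF48 (4.95 and 5.06), ZNF131 (5.01 on both arrays) and ZNF860 (5.13 and 4.91). Just outside were ZNF621 (4.71 and 5.28), ZNF446 (5.21 and 4.78) and ZNF786 (4.96 and 5.01). The other 293 ZNF genes under the floor had a median level of 3.67 and a median difference of 0.00, and 19 of them (6.48%) were lower and 8 (2.73%) higher by 1.5-fold, against 4.34% and 3.60% of all 8022 named genes under it. ZNF100, of the gene cluster around ZNF91, read 5.40 and 4.39 (-1.02), and its mean of 4.89 keeps it out.

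Some ZNF genes have described roles outside KRAB silencing, and 34 of the 41 on that list were members. None of the 34 passed 1.5-fold, where 3.95% of all named genes at the floor did upward and 1.06% downward. Of the 34, 19 read higher and 13 (38.2%) lower in the compressed culture, where 46.4% of all named genes read lower. Their median was 0.07, against 0.04 for the 109 members outside the list. Among those acting at the ribosome, ZNF598, a ubiquitin ligase that marks collided ribosomes, read 6.64 and 6.97 (0.33). ZNF593 and ZNF622, whose products take part in maturation of the large ribosomal subunit, differed by 0.22 and 0.08. All 3 were higher in the compressed culture, as were 3528 of all 6862 named genes at the floor. With so few genes nothing is read from this direction.

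Members that act on chromatin and transcription went both ways. ZNF410, known for one dominant target, the remodeller gene CHD4, read 5.36 and 5.82 (0.45, 1.37-fold higher). CHD4 itself carried exactly the same value on both arrays (7.77), as did 2.17% of named genes at the floor. ZNF217, an oncogenic co-repressor partner, read 6.51 and 6.80 (0.29). ZNF592, ZNF687 and ZNF532, partners of the chromatin reader ZMYND8, differed by 0.23, -0.10 and 0.29. ZNF281, a factor linked to pluripotency and epithelial-mesenchymal transition, read 6.42 and 6.68 (0.26), and ZNF143, an activator bound at many promoters, 6.45 and 6.66 (0.20). ZNF644, a partner of the histone methyltransferases G9a and GLP, read 6.93 and 6.75 (-0.18). ZNF274, which brings SETDB1 to the ends of other ZNF genes, read 5.25 and 5.05 (-0.20).

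The lowest of the role list were ZNF451, ZNF326 and ZNF395. ZNF451, a SUMO ligase, read 6.73 and 6.39 (-0.34, 1.26-fold lower), and its other probe set 5.19 and 5.05 (-0.14). ZNF326, a subunit of a complex that couples transcription to splicing, read 7.29 and 6.99 (-0.30, 1.23-fold lower). ZNF395, a hypoxia-responsive factor, read 6.88 and 6.63 (-0.24). All 3 were clearly above the floor on both arrays.

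**Figure D4:**
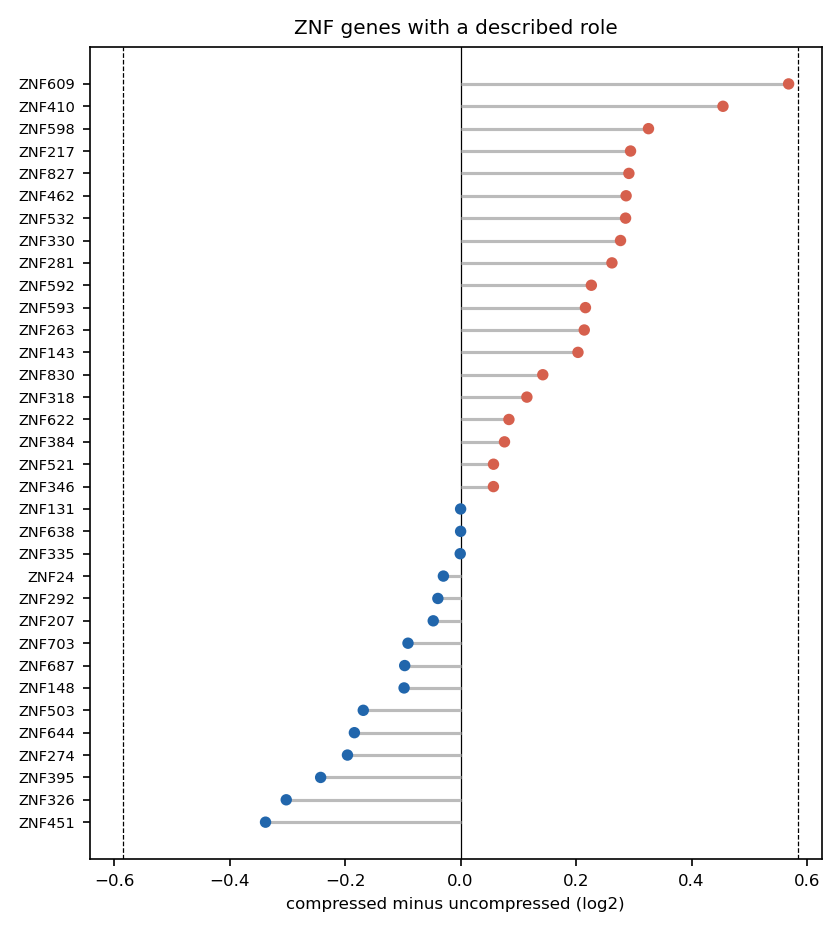
Log2 difference compressed minus uncompressed (horizontal axis) for the 34 ZNF genes at the floor with a described role, 1 point per gene, red above 0 and blue at or below 0; dashed lines mark 1.5-fold. The points run from -0.34 (ZNF451) to 0.57 (ZNF609), all inside the dashed lines.

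Neighbouring ZNF genes did not share 1 direction. ZNF genes arose largely by tandem duplication, and the cluster around ZNF480 held both ends of the distribution: ZNF480, the lowest member, and ZNF320, ZNF841 and ZNF160, the highest, the second highest and the third highest. Of these only ZNF841 read at least 5.0 on both arrays. ZNF480, ZNF320 (4.62 and 5.41) and ZNF160 (4.67 and 5.37) are members only through the array where they read higher, so nothing is read about the cluster from their place. Of the 35 genes listed for that cluster 28 had a named probe set, and 10 of these were members. In order along the RefSeq table, ZNF766 (6.53 and 6.41) and ZNF480 (5.45 and 4.64) are adjacent, with no other protein-coding gene between, and ZNF841 (5.68 and 6.45) lies a few genes before them. ZNF880, also in the stretch, read 5.58 on both arrays. The members ZNF614, ZNF611, ZNF600 and ZNF765 differed by -0.06, -0.07, 0.06 and -0.17. Among the 18 genes of the cluster under the floor, ZNF701 read 3.88 and 3.08 (-0.80) and ZNF83, next to it, 3.43 and 4.02 (0.59). The median of the 10 members was -0.03, with 5 below 0, 4 above and 1 at 0. Closely related genes of this cluster may share probe targets, and whether that moved signal from one to another was not tested.

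**Figure D5:**
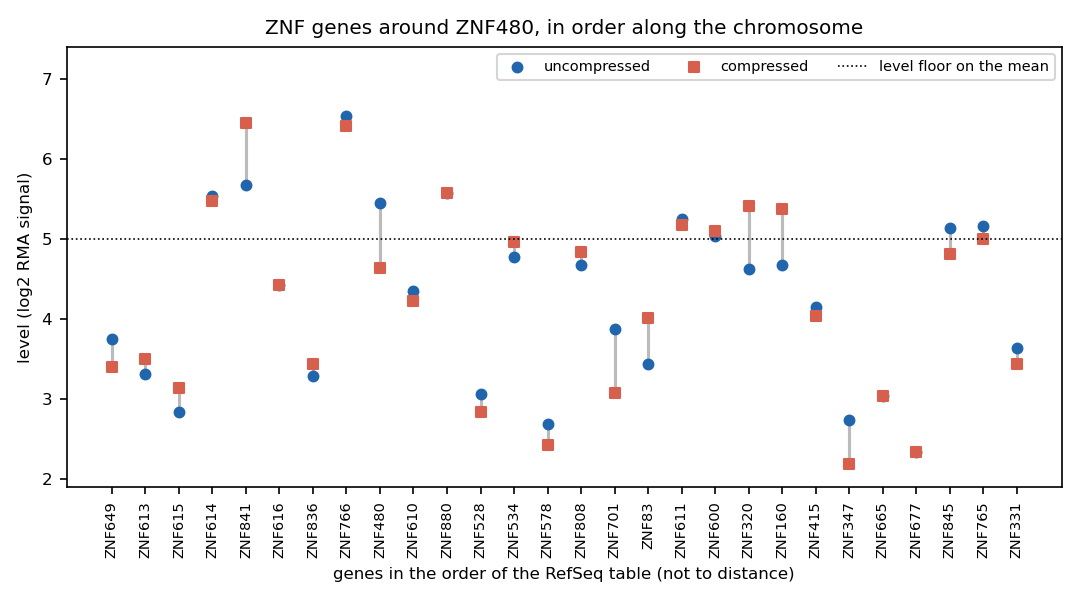
Levels (log2 RMA signal, vertical axis) of the 28 named genes of the ZNF480 cluster in the order of the RefSeq table (horizontal axis, not to distance), uncompressed as blue circles and compressed as red squares, with the level floor dotted; where both arrays read the same, only the square shows. ZNF841, ZNF320 and ZNF160 stand higher and ZNF480 lower in the compressed culture, and below the floor ZNF701 stands lower (-0.80) and ZNF83 higher (0.59).

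In the cluster around ZNF91, a set of ZNF genes that expanded in primates, 30 of 34 listed genes had a named probe set, and only ZNF98 (5.20 and 5.63) and ZNF101 (5.05 and 5.17) reached the floor. The median level of the 30 was 2.75, so this cluster is nearly all dim on these arrays. Across the genome, 20 pairs of members were consecutive protein-coding genes in the RefSeq table (GRCh38.p14). In 12 of the 20 pairs (60.0%) both differed in the same direction and in 8 in opposite directions. Of 2509 such pairs of named genes at the floor, 1234 (49.2%) went the same way and 1176 opposite ways. The rest of those 2509 pairs held a gene with a difference of 0. ZNF426 and ZNF121 read higher together (0.30 each), as did ZNF672 and ZNF692 (0.27 and 0.21), and ZNF239 and ZNF485 lower together (-0.73 and -0.29). ZNF467 and ZNF862 differed by -0.58 and 0.12.

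The start regions of the members at both ends of the distribution are shown because several hold the same short word, CCGGAAG, the core that ETS factors such as GABPA bind. RefSeq promoter windows (GRCh38.p14, 250 bases before to 50 after a start, the first listed window of each gene) were matched for 125 of the 143 members. The stretches below are 30 bases in gene direction with CCGGAAG in capitals, and for ZNF579 the strand opposite to the gene. ZNF841, ZNF160 and ZNF320 belong to the ZNF480 cluster but are not adjacent, with other genes of the cluster list or other protein-coding genes between them. These cluster genes and ZNF655 read higher, and ZNF239 and ZNF579 lower, in the compressed culture. ZNF160, ZNF320, ZNF239 and ZNF579 passed the floor only through the array where they read higher.
ZNF841 (chr19:52095743-52095772, minus strand): ttcctgcacacCCGGAAGcagatcgcgctg
ZNF160 (chr19:53103400-53103429, minus strand): tgcccacagacCCGGAAGtggatcgtgcgg
ZNF320 (chr19:52897670-52897699, minus strand): ttggcatagacCCGGAAGcggatggcaggg
ZNF655 (chr7:99558654-99558683, plus strand): gcactccgtcgCCGGAAGtgccaccgagaa
ZNF239 (chr10:43574638-43574667, minus strand): aggggcccgcgCCGGAAGtgggcgtggttc
ZNF579 (chr19:55580974-55581003, read on the plus strand): tggctgggaagCCGGAAGcgggaggacggg

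The 3 cluster genes carry the word at nearly the same place, with its first base at position 5 (the start counted as 1) for ZNF841 and ZNF160 and 7 for ZNF320. It was found on either strand in 56 of the 125 windows (44.8%), against 10.7% of 27305 promoter windows of the table and 21.0% of the 5471 windows of named genes at the floor. This word was searched after the windows had been read. It was found at both ends of the distribution, in 9 of 13 windows among the 15 highest members and in 8 of 13 among the 15 lowest. Several members at each end passed the floor only through the array where they read higher, so nothing is read from these ends. The median difference was 0.00 for the 56 members with the word and 0.06 for the 69 without.

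The core of the metal-response element, through which the zinc sensor MTF1 activates metallothionein genes, was searched as TGCACNC and TGCGCNC on both strands. One or both were in 44 of 125 member windows (35.2%), against 29.3% of all windows and 39.8% of those of named genes at the floor. The 44 members with a match had a median difference of 0.01 and the 81 without one 0.08. A match was found in 5 of 13 windows at each end of the distribution, and nothing is read from these ends here either. MTF1 itself, chosen after its values were seen, read 6.79 and 7.16 (0.37, 1.29-fold higher).

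Other short words were searched on both strands. GGGCGG, the box bound by SP factors, was in 73.6% of member windows and 72.9% of windows at the floor, and CCAAT in 39.2% and 36.6%. ACTACAA, part of the site of ZNF143, was in 10 member windows (8.0% against 3.89%), which had a median difference of 0.16 against 0.02 without it. The median GC content was 63.7% in member windows and 66.0% in windows at the floor. The 250 bases before the start of ZNF841, the member past 1.5-fold with the highest level, show how GC-rich such a window is, with GGGCGG on either strand in capitals.
ZNF841 (GRCh38.p14, chr19:52095766-52096015, minus strand): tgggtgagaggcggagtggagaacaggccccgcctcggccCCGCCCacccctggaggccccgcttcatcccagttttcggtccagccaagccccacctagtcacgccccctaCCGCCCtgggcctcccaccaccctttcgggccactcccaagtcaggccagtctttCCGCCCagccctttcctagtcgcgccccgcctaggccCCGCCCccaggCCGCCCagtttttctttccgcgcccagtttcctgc

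Longer ZNF genes read higher more often than shorter ones. Split at the members' median gene length in the RefSeq table, 21797 bases, the 72 members at or above it had a median difference of 0.09 with 45 above 0, and the 71 shorter ones -0.03 with 32 above 0. For named genes at the floor on the same split, the 3774 longer ones had a median of 0.03 with 2040 above 0. The 3088 shorter ones had a median of 0.00 with 1488 above 0. The shares below 0 were 31.9% of longer and 54.9% of shorter members, against 43.9% and 49.5% of named genes, so both tilted the same way. Across the 143 members the difference and the log10 gene length had a Pearson r of 0.26 and a Spearman rho of 0.28, against 0.05 and 0.09 across all 6862 genes. These are correlations across genes of the same 2 arrays, which share probes and normalization, and genes are not independent replicates.

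The genes that work with KRAB-containing ZNF proteins read lower more often than higher. Of 19 listed co-repressor and HUSH genes 16 had a named probe set, SETDB1 not among them, and 15 reached the floor. Of these 15, 10 (66.7%) read lower, 3 higher and 2 the same, where 46.4% of all named genes at the floor read lower. Their median was -0.11 against 0.01 over all named genes. Their median level was 6.93, and 41.9% of named genes from 6 to 7 and 50.4% of those at 7 or above read lower. None of the 15 passed 1.5-fold, as 3.95% of all named genes did upward and 1.06% downward. TRIM28, the scaffold that KRAB boxes bind, read 7.94 and 7.61 (-0.34, 1.26-fold lower). The HP1 genes CBX5, CBX3 and CBX1 differed by -0.29, -0.28 and -0.11. The deacetylase genes HDAC1 and HDAC2 differed by -0.26 and -0.20, the remodeller gene CHD3 by -0.12, and the maintenance methyltransferase gene DNMT1 by -0.30, whereas its partner UHRF1 differed by 0.07. ATF7IP, which stabilises SETDB1, read 6.46 and 6.80 (0.34, 1.27-fold higher). Of the HUSH complex and its partners, MPHOSPH8 differed by 0.14, PPHLN1 by -0.01, MORC2 by -0.09 and ZNF638 by 0.00, and ATF7IP2 was below the floor.

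Related zinc finger families at the same floor gave medians on either side of 0. Over all 6862 named genes at the floor the median was 0.01, with 3528 above 0 and 3185 (46.4%) below. The 26 ZBTB genes, which join a BTB domain to C2H2 fingers, had a median of -0.01 with 12 above 0 and 14 (53.8%) below. The lowest of them was ZBTB9 (5.98 and 5.41, 1.49-fold lower). The 5 ZSCAN genes had a median of -0.12 and the 5 ZFP genes of 0.19, with ZFP62 the highest at 5.01 and 5.54 (1.44-fold higher). Both ZKSCAN genes at the floor read higher, ZKSCAN1 by 0.27 and ZKSCAN8 by 0.39. The 11 ZC3H genes, whose CCCH fingers bind RNA, had a median of -0.03. The 40 RNF genes, whose RING fingers mark ubiquitin ligases, had a median of 0.17, with 31 above 0 and 9 (22.5%) below. RNF181 (0.56) and RNF25 (0.55) were the highest of them. None of these families held a gene past 1.5-fold at the floor, a size that 3.95% of all named genes passed upward and 1.06% downward.

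A second look at the same genes was possible for 7 members with more than 1 probe set. Of the 8 further probe sets, 3 had the direction of the chosen one. Those of ZNF219 differed alike (-0.24 and -0.24), and those of ZNF451 and ZNF668 were all below 0. ZNF322 differed by -0.27 on the chosen and by 0.31 on a far dimmer probe set, and ZNF865 by -0.04 on the chosen and by 0.18 and 0.41 on the others. The members ZNF638, ZNF880, ZNF484 and ZNF131 carried exactly the same value on both arrays (2.80% of members against 2.17% of named genes at the floor), and no member shared its pair of values with another gene. The members past 1.5-fold had 1 named probe set each, so none has this check.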

How the data were processed

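RNA of 1 uncompressed and 1 compressed AsPC-1 culture was measured on 2 arrays. The authors deposited log2 signals of 53617 probe sets. The submitters' processing notes name RMA and Transcriptome Analysis Console as tools. RMA gives both arrays like distributions, which removes a shift shared by all genes. The build and library files were not given in the sources used here.

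Platform annotation named 16098 probe sets with 1 gene each, 0 with several, and the other 37519 are unnamed here. The 143 members all matched the RefSeq gene table (GRCh38.p14) by gene identifier. The members and gene lists were chosen with earlier results of these data known. The counting size was 1.5-fold. A group has 1 array, so differences were described and not tested. The counting code was checked on simulated differences with shifts larger than any member's difference. That check says nothing about counts near the size rule.

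Genes named are the 15 members at each end, the 8 brightest, the 3 on each side of the floor, and genes of the fixed lists, unless said otherwise. Alternatives changed the floor, the probe set rule, the normalization and the size. CCGGAAG and the protein-coding background were added after the data were seen. Proteins were not used here, so finger counts and KRAB boxes were not analysed. Calculations ran in Python 3.11.15 with pandas 2.3.3 and NumPy 2.4.6. Rank correlations used SciPy 1.17.1, loess statsmodels 0.14.6 and plots matplotlib 3.10.9.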

Additional observations from a re-analysis of the deposited data

How the results depend on the processing

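The median difference of the ZNF genes, 0.06 as reported, has no settled sign. It was 0.0033 with no level floor, 0.0341 after loess correction (span 0.3) and -0.00178 after repeated quantile normalization, under which the median of all named genes at the floor was -0.03, and the sign there depended on which genes passed the floor (0.00683 over the same 143 genes). It moved by less than 1.5 times under the other alternatives. The share below 0 ran from 39.5% to 50.3% over the alternatives. The count at least 1.5-fold lower (3) became 22 of 436 with no floor, 0 of 48 at a floor of 6.0 and 0 of 119 with both arrays at 5.0 or above. It became 10 at a size of 0.32 (log2) and 0 at 2-fold. The count at least 1.5-fold higher (4) became 12, 1, 2, 19 and 0 under the same alternatives. Over all named genes, 421 of 14884 were lower and 560 higher with no floor, and 38 of 4295 lower and 158 higher at a floor of 6.0. At a size of 0.32, 7.81% of those at the floor were lower and 13.5% higher, and at 2-fold 0.0729% and 0.933%. With both arrays at 5.0 or above no share over all named genes is given. The medians of the length, level (below 7), role, cluster and family groups given above kept their signs under loess and repeated quantile normalization, and so did the 15 members that differed by 0.50 or more. Fewer or dimmer genes enter under other floors by construction. Under the other alternatives the ZNF counts ran from 3 to 4 lower and from 3 to 6 higher. Where computed over all named genes (6769 to 6869), those counts ran from 66 to 96 lower and from 216 to 264 higher. No paired analysis was possible because each group has 1 array. Alternatives that need proteins (finger matches, KRAB boxes) were not run. The number of arrays and the low signal of most ZNF genes limit all values.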
